A study of Mus musculus with 18 samples.

Results

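Peritubular myoid cells are the flat contractile cells that wrap the seminiferous tubules of the testis. A set of 41 genes of the contractile and actin machinery was followed: 4 actins, the thin filament proteins that bind them, the myosins and their light chains and kinase, the intermediate filaments, the proteins that tie actin to adhesions, and the transcription factor Srf. The genes were listed by name with no measured value in the rule, but earlier results of these data were known when they were chosen. Shares of members set beside all genes therefore describe this list and are not a blind test. Each gene was read from the brightest probe set that carries its symbol alone. Of the 41 genes, 40 were measured, out of 12393 genes with such a probe set, and Myh10, a non-muscle myosin, was not analysed here. Members typical of muscle were kept apart from general ones. The smooth muscle class has 11 (Acta2, Actg2, Tagln, Myl9, Mylk, Myh11, Cnn1, Tpm2, Des, Lmod1 and Smtn) and the striated muscle class 2 (Myh6 and Myh8). The other 28, of which 27 were measured, were classed as general. The classes are not strict. Tpm2, Myl9 and Mylk are not confined to muscle, and Csrp2, known from smooth muscle, is in the general class.

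All mice were hypogonadal (hpg) males of 10 weeks, which lack gonadotrophin-releasing hormone and therefore make very little follicle-stimulating hormone (FSH) or luteinising hormone. Recombinant FSH was injected under the skin, 8 IU in 0.2 ml at intervals of 12 h, for 12 h (4 mice), 24 h (3 mice) or 72 h (4 mice), and the animals were killed 1 h after the last dose. The 7 controls were hpg males of the same age without treatment, so injection itself has no control group. Whole testis RNA of each mouse went to 1 Affymetrix MOE430A array, and expression is given on the log2 scale of the deposited table, 1 value per probe set.

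Contraction in smooth muscle and myoid cells starts when calcium activates the myosin light chain kinase Mylk, which phosphorylates the regulatory light chain Myl9 and lets the myosin heavy chain Myh11 pull on actin filaments. Calponins, caldesmon and tropomyosins sit along the thin filament and restrain or tune this, while filamin, alpha-actinins, talin and vinculin anchor the filaments at the membrane. Many of these genes carry CArG boxes, the binding motif of Srf, which is active when its cofactors are released from unpolymerised actin. FSH acts on Sertoli cells, the epithelial cells inside the tubule, and myoid cells have androgen receptors but are not known as a direct FSH target.

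The arrays fell into 2 technical sets that can be told by the bacterial Dap spike-in. It read 8.05 to 8.86 on 12 spiked arrays (controls 4 to 7 and every 12 h and 72 h mouse) and 2.70 to 3.41 on 6 unspiked ones (controls 1 to 3 and every 24 h mouse). Each difference below is therefore within a set, 12 h and 72 h against controls 4 to 7 and 24 h against controls 1 to 3, and the 12 h and 72 h comparisons share their controls. Between untreated mice alone, 8 of the 40 members did not overlap between unspiked and spiked arrays, 5 higher and 3 lower on the unspiked ones. Over all 40 members the differences ran from -0.97 (Tagln, whose arrays overlapped) to 0.97 (Actb). The share of all genes that did not overlap here was not computed, so this count does not set the members apart. The sets also differed in the 18S ribosomal RNA control probe sets, at 3.355 to 3.704 on spiked arrays and 9.068 to 11.69 on unspiked ones. Control 1 read 9.068 and the other unspiked arrays 11.05 to 11.69. Array medians were 4.44 to 4.63, and pairs of arrays correlated at 0.945 to 0.997. Of the members, 35 averaged above the median probe set level of 4.54 and 5 (Actg2, Lmod1, Smtn, Myh8 and Des) at or below it, where a difference may be understated. In whole testis, fewer cells of a type and less RNA per cell cannot be told apart.

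The label of these genes was checked against 6 defining myoid markers. Acta2, Myh11 and Tagln read above the median probe set level on every array, between 10.66 and 11.73, 8.04 and 8.86, and 6.81 and 10.01. Cnn1 lay around that level, at 3.44 to 6.09. Des and Actg2 were dim, at 2.73 to 3.20 and 3.08 to 4.87. None of these markers separates myoid cells from the smooth muscle of vessel walls, and most general members are expressed by Sertoli, Leydig and germ cells as well, so the set is read here as contractile and actin genes of the whole testis.

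After 12 h of FSH the contractile genes lay mostly above the controls. A call needed a limma adjusted p below 0.05 over all 22626 probe sets tested. Of 40 members 9 rose and 1 fell: tropomyosins Tpm2, Tpm3 and Tpm4, the light chain Myl9, the intermediate filament Vim, and the linkers Actn4, Flna, Vcl and Tln1 were higher, and the myosin Myh8 was lower. Of all genes, set beside these 10 of 40, 6.28% were called, 3.52% higher (members 22.5%) and 2.76% lower (members 2.5%). The median member differed by 0.32 on the log2 scale, against -0.00 for all genes, and 34 of 40 (85.0%) had a positive difference, against 42.6% of all genes and 44.8% of genes above the median level. Smooth muscle members had 2 of 11 called higher (Tpm2 and Myl9) with a median of 0.38, and general members 7 of 27 with a median of 0.32. The 12 h and control arrays did not overlap for 14 members, 13 higher and 1 lower, beside 6.07% and 5.94% of all genes. Without the block for the array set the calls of Tpm3, Vim and Vcl were lost. The number called was 5 without 12 h replicate 4 and 6 without control 6 or control 7.

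At 24 h the members moved in both directions. Tpm2 and the LIM protein Csrp2 rose, and the calponins Cnn2 and Cnn3, the adhesion protein Lpp and the myosins Myh6 and Myh8 fell, so 7 of 40 (17.5%) were called, beside 14.8% of all genes. Of all genes 6.38% were higher (members 5.0%) and 8.45% lower (members 12.5%). The median member differed by 0.03, against 0.04 for all genes, and groups did not overlap for 7 members above and 7 below their controls, beside 24.5% and 13.0% of all genes. Same-numbered 24 h and control arrays deviated together, and a fit that paired them called 10 members, 2 higher and 8 lower of 40, beside 22.5% of all genes, 11.5% higher and 11% lower. It kept the 7 calls, adding Tpm1 (-0.49, adjusted p = 0.0262), Myl6 (-0.85, adjusted p = 0.0466) and Zyx (-0.46, adjusted p = 0.0289). Within the unspiked arrays alone, without pairing, 2 members were called, Tagln2 (0.55, adjusted p = 0.0249) and Myh6 (-2.83, adjusted p = 0.0271). The number was 3 without 24 h replicate 2 or without control 1.

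After 72 h of FSH 6 members rose (Actb, Tpm2, Tpm3, Actn4, Pdlim1 and Csrp2) and 2 fell (Cnn3 and Myh8), or 8 of 40, beside 7.26% of all genes, 4.23% higher and 3.03% lower. The median member differed by 0.14, against 0.01 for all genes. Groups did not overlap for 8 members above and 2 below the controls, beside 7.46% and 6.74% of all genes. Without the block for the array set the 72 h calls of Actb and Tpm3 were lost. Among smooth muscle members 1 of 11 was called, Tpm2, and among general members 5 of 27 rose and 1 fell. The number called was 4 without 72 h replicate 2, and 5 without 72 h replicate 3, 72 h replicate 4, control 6 or control 7. Between the treated groups, 72 h against 12 h, 1 member was higher (Csrp2) and 4 were lower (Cnn3, Tagln, Actn4 and Flna), 12.5% of members beside 2.86% of all genes, with 2.5% higher beside 1.76% and 10.0% lower beside 1.1%. The median member was -0.15 in that comparison, against 0.02 for all genes, and 10 of 40 had a positive difference, beside 63.7% of all genes and 51.5% of genes above the median level. Groups did not overlap for 2 members higher and 10 lower at 72 h, beside 5.25% and 4.59% of all genes. Without the block the Tagln and Actn4 calls were lost. This number was 2 without 12 h replicate 4 and 3 without 12 h replicate 3 or without any single 72 h array.

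**Figure D1:**
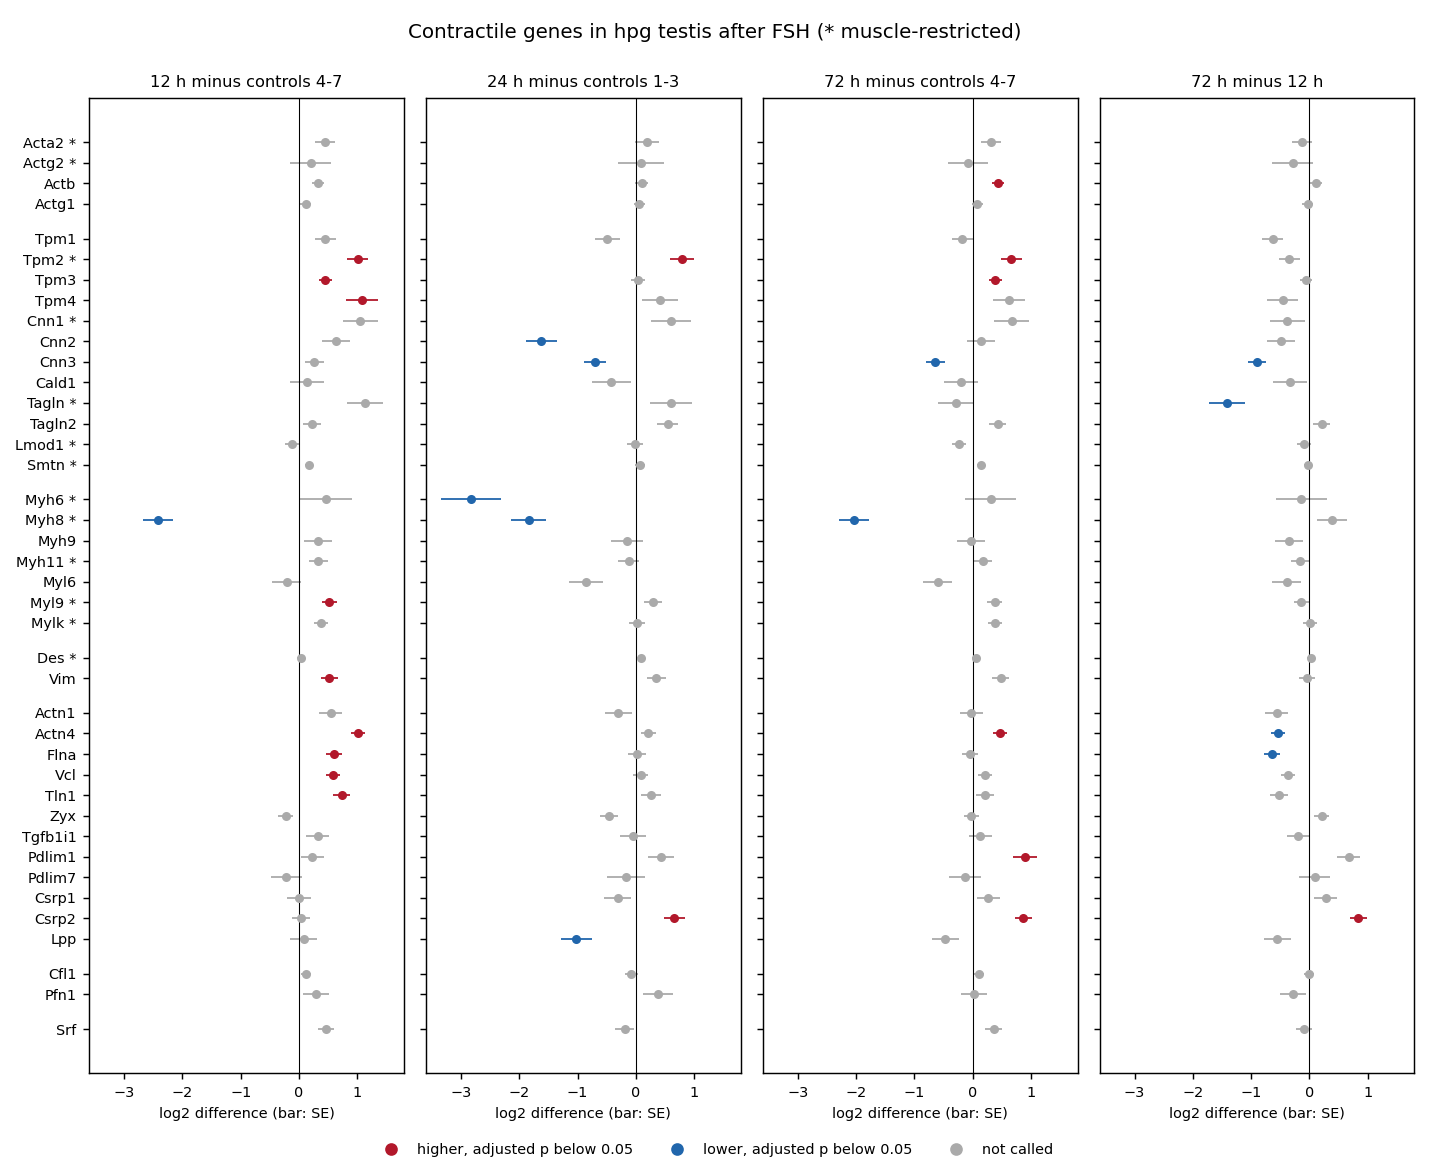
Log2 difference (x axis, with its SE as a bar) of each of the 40 measured contractile genes (rows, grouped by role) in the 4 comparisons. Points are red where called higher, blue where called lower and grey where not called. An asterisk marks genes of the smooth or striated muscle class, not all of which are confined to muscle. At 12 h the points sit mostly right of 0 (34 of 40), while at 24 h they lie on both sides and Cnn2, Myh6 and Myh8 stand far to the left.

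**Figure D2:**
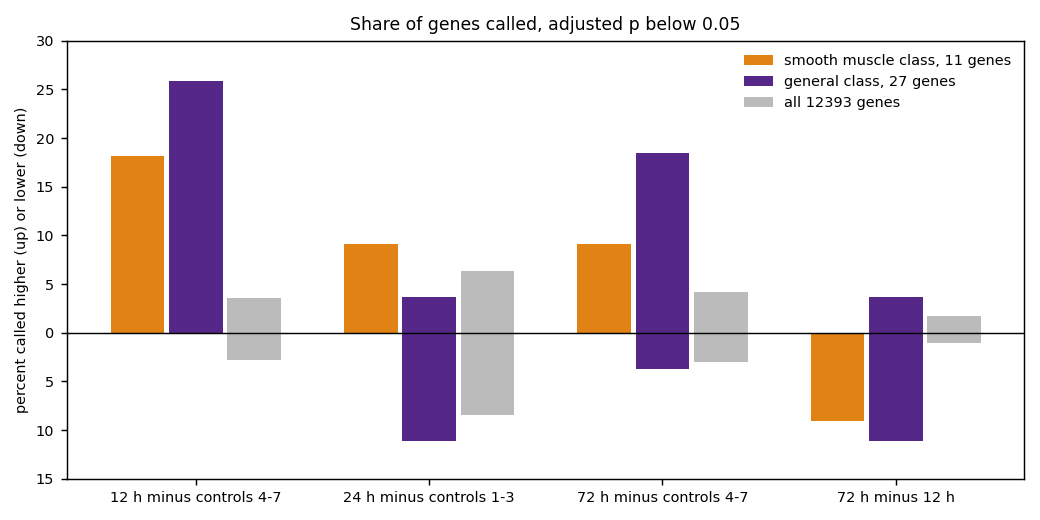
Percent of genes called higher (up from 0) or lower (down from 0) in each comparison, for 11 smooth muscle members, 27 general members and all 12393 genes. The 2 striated muscle members are not drawn. At 12 h 18.2% of smooth muscle and 25.9% of general members were called higher, beside 3.52% of all genes.

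Of the actins, the protein of the filament itself, Actb was called, at 72 h, and the other 3 in no comparison. Acta2, the actin of smooth muscle and the usual mark of myoid cells, read 11.54, 11.72, 11.24 and 11.57 at 12 h and 11.13, 11.35, 11.44 and 11.62 at 72 h, against 10.90, 11.50, 11.25 and 10.66 in controls 4 to 7. At 24 h Acta2 read 11.42, 11.73 and 11.30, against 11.07, 11.47 and 11.35 in controls 1 to 3. Its arrays overlapped those of the controls at each time: of the spiked controls, 5 and 6 lay among the treated mice and 4 and 7 below them. The differences of 0.44 ± 0.17, 0.19 ± 0.20 and 0.31 ± 0.17 (log2, SE) at 12, 24 and 72 h were not called (adjusted p = 0.204, 0.534 and 0.444). Actg2, the actin of visceral smooth muscle, read 4.78, 3.49, 3.65 and 3.40 at 12 h and 3.51, 3.80, 3.49 and 3.38 at 72 h, against 3.20, 3.08, 4.87 and 3.36 in controls 4 to 7. At 24 h Actg2 read 3.60, 3.62 and 3.49, against 3.35, 3.55 and 3.53 in controls 1 to 3. Apart from single arrays at 4.78 and 4.87 it stayed dim in all groups.

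Of the cytoplasmic actins, present in every cell, Actb was called and Actg1 was not. Actb read 12.83, 12.79, 12.96 and 12.96 at 12 h and 12.98, 12.98, 12.90 and 13.13 at 72 h, against 12.38, 12.82, 12.47 and 12.60 in controls 4 to 7. At 24 h Actb read 13.63, 13.84 and 13.44, against 13.58, 13.56 and 13.47 in controls 1 to 3, all above every spiked array. Every 72 h array was above all of controls 4 to 7, by 0.43 ± 0.10 (adjusted p = 0.014), while the 12 h difference of 0.32 ± 0.10 was not called (adjusted p = 0.0757) unless control 5 was left out (0.40, adjusted p = 0.0163). A second Actb probe set, at a mean of 9.75, gave -0.42 ± 0.32 at 72 h (adjusted p = 0.655), and with the mean of both the call was lost (0.01, adjusted p = 0.987). The array's actin control probe sets, kept out of the tests, all read higher at 72 h than in controls 4 to 7. The 3 prime one read 13.46 to 13.62 against 13.03 to 13.38. The middle one read 11.46 to 11.64 against 10.69 to 11.4, and the 5 prime one 12.02 to 12.29 against 11.21 to 11.91. The array's own 3 prime minus 5 prime actin difference is a measure of RNA and labelling quality. It was 1.22 to 1.63 on the 12 h arrays, 1.33 to 1.48 on the 72 h arrays and 1.36 to 1.82 in controls 4 to 7. On the unspiked arrays it was 0.816 to 1.1, below every spiked array. Its part in the Actb result and in the differences of the other members was not tested. Actg1 read 12.52, 12.95, 12.87 and 12.88 at 12 h and 12.73, 12.67, 12.80 and 12.91 at 72 h, against 12.71, 12.77, 12.58 and 12.73 in controls 4 to 7. For Actg1 the 24 h arrays read 12.80, 12.84 and 13.01, against 12.76, 12.85 and 12.85 in controls 1 to 3. Its differences of 0.06 to 0.11 were within the spread of the arrays, and its probe set may match several transcripts.

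Tropomyosins, which lie along the actin filament and set access of myosin, had 3 of 4 members called higher at 12 h. Tpm2, the form of smooth and slow striated muscle, read 10.14, 10.01, 9.80 and 9.99 at 12 h and 9.37, 9.59, 9.79 and 9.80 at 72 h, against 8.96, 9.50, 8.99 and 8.46 in controls 4 to 7. At 24 h Tpm2 read 9.30, 9.81 and 9.43, against 8.55, 8.88 and 8.75 in controls 1 to 3. All 12 h arrays and all 24 h arrays lay above their controls, and at 72 h 1 array, at 9.37, fell below the highest control. Tpm2 was the only member called higher at all 3 times, by 1.01 ± 0.18 (2.01-fold, adjusted p = 0.00326), 0.79 ± 0.21 (adjusted p = 0.0229) and 0.66 ± 0.18 (adjusted p = 0.0425). A second bright probe set of Tpm2 gave 1.23 ± 0.20, 0.87 ± 0.23 and 0.95 ± 0.20 (adjusted p = 0.00148, 0.0229 and 0.00889). The 12 h call stood without each array in turn. The 24 h call was lost without 24 h replicate 2 or control 1 (adjusted p = 0.0927 and 0.0943), and the 72 h call stood in 7 of 18 such fits, being lost without 12 h replicates 2, 3 or 4, 24 h replicate 3, 72 h replicates 2, 3 or 4, or controls 3, 4, 6 or 7 (highest adjusted p = 0.117). It was also lost within the array set alone (adjusted p = 0.0657) and with quantile normalization (adjusted p = 0.0556).

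Tpm4, a tropomyosin of non-muscle cells, read 7.98, 7.96, 8.56 and 8.67 at 12 h and 7.64, 7.77, 7.87 and 8.04 at 72 h, against 7.34, 7.86, 7.12 and 6.53 in controls 4 to 7. At 24 h Tpm4 read 7.96, 7.58 and 7.32, against 7.25, 7.66 and 6.72 in controls 1 to 3. Only the 12 h arrays cleared their controls, by 1.08 ± 0.27 (2.11-fold, adjusted p = 0.0305), and without 12 h replicates 3 or 4 or controls 4, 6 or 7 the call was lost (adjusted p = 0.0552 to 0.102). Tpm3, another general tropomyosin, rose by 0.45 ± 0.11 at 12 h (adjusted p = 0.0207) and 0.39 ± 0.11 at 72 h (adjusted p = 0.0396), while its 24 h difference was 0.03 ± 0.12. Its 12 h call was lost without 12 h replicates 3 or 4 or controls 6 or 7, and its 72 h call stood in 11 of 18 fits without 1 array, being lost without 12 h replicate 3, any 72 h array, or controls 6 or 7. The 72 h call was also lost within the array set alone (adjusted p = 0.0657) and with quantile normalization (0.0781), and the 12 h call for the gene's mean (0.0534). Tpm1 was called in no comparison, with differences of 0.45, -0.49 and -0.18 at 12, 24 and 72 h. Its 72 h against 12 h value of -0.63 was called without 24 h replicate 3 (adjusted p = 0.0469).

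Calponins, actin-binding proteins that slow myosin, did not move alike. Cnn1, the smooth muscle form, read 6.09, 5.63, 4.74 and 5.59 at 12 h and 4.74, 4.91, 4.89 and 5.98 at 72 h, against 4.38, 4.54, 4.60 and 4.32 in controls 4 to 7. At 24 h Cnn1 read 4.70, 4.35 and 4.43, against 3.44, 3.85 and 4.39 in controls 1 to 3. Every 12 h and 72 h array was above controls 4 to 7, yet the arrays of each of these times spread by over 1 unit and no difference was called: 1.05 ± 0.30 at 12 h (adjusted p = 0.0548), 0.60 ± 0.34 at 24 h and 0.67 ± 0.30 at 72 h. The 12 h value was called without 12 h replicate 3 (1.31, adjusted p = 0.0151), 72 h replicate 4 (1.05, adjusted p = 0.0215) or control 3 (1.05, adjusted p = 0.0471).

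Cnn2, a calponin of non-muscle cells, read 7.42, 7.27, 7.35 and 7.78 at 12 h and 7.02, 7.20, 6.88 and 6.77 at 72 h, against 6.92, 7.07, 6.64 and 6.69 in controls 4 to 7. At 24 h Cnn2 read 5.75, 4.99 and 4.22, against 6.72, 6.57 and 6.53 in controls 1 to 3. The 24 h arrays were thus the lowest of all 18, and they differed among themselves more than any other group. The 24 h difference was -1.62 ± 0.27 (3.07-fold, adjusted p = 0.00155), while 12 h and 72 h gave 0.63 ± 0.24 and 0.14 ± 0.24, neither called. The 12 h value was called without 24 h replicate 1 or 3 (adjusted p = 0.0425 and 0.0398). The direct contrast of 24 h with 12 h, each against its own controls, was -2.25 ± 0.36 (adjusted p = 0.0108). In that contrast 2 members, Cnn2 and Myh6, were called, both lower, beside 0.928% of all genes (0.282% higher and 0.646% lower). For 72 h against 24 h Cnn2 gave 1.76 ± 0.36 (adjusted p = 0.0557), and limma called 0 of 40 members (6 at an unadjusted p below 0.05), beside 0.339% of all genes (0.242% higher and 0.0968% lower). Within the unspiked set alone the 24 h value was not called (adjusted p = 0.133).

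Cnn3, the most widely expressed calponin, read 11.59, 11.35, 11.92 and 11.90 at 12 h and 10.56, 10.74, 11.03 and 10.81 at 72 h, against 11.58, 11.63, 11.12 and 11.37 in controls 4 to 7. At 24 h Cnn3 read 11.24, 10.93 and 10.66, against 11.80, 11.72 and 11.42 in controls 1 to 3. Its arrays lay below their controls at 24 h and 72 h and overlapped them at 12 h. The differences were 0.26 ± 0.16 at 12 h (not called), -0.70 ± 0.19 at 24 h (adjusted p = 0.0243) and -0.64 ± 0.16 at 72 h (adjusted p = 0.0298), and 72 h minus 12 h was -0.90 ± 0.16 (1.87-fold, adjusted p = 0.00836). At 72 h against 12 h all 6 Cnn3 probe sets were below 0, from -0.21 to -0.90. That call stood without each array in turn, whereas the 24 h call was lost without 24 h replicates 2 or 3 or controls 1 or 2 (adjusted p = 0.0633 to 0.0986), and the 72 h call without 72 h replicates 1, 2 or 4 or controls 4, 5 or 7 (adjusted p = 0.0577 to 0.0888).

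Tagln, or transgelin, an early marker of smooth muscle cells, had the largest difference of any member between 72 h and 12 h. It read 9.86, 9.49, 9.30 and 10.01 at 12 h and 8.46, 8.26, 7.78 and 8.47 at 72 h, against 8.64, 9.30, 7.97 and 8.24 in controls 4 to 7. At 24 h Tagln read 8.26, 8.28 and 7.97, against 6.81, 8.24 and 7.64 in controls 1 to 3. All 72 h arrays lay below all 12 h arrays, and the 12 h range met that of controls 4 to 7 only at control 5. The 72 h level was below the 12 h level, at -1.42 ± 0.31 (2.68-fold, adjusted p = 0.0258), while 12 h against controls missed the threshold at 1.13 ± 0.31 (adjusted p = 0.0503, and 0.00984 to 0.406 over the alternatives) and 72 h gave -0.29 ± 0.31. The 72 h against 12 h call was lost without 12 h replicates 1 or 4 or 72 h replicates 2 or 3 (adjusted p = 0.0634 to 0.0881), and the 12 h value was called without controls 1, 2 or 5 (adjusted p = 0.0252, 0.0321 and 0.0144). The other thin filament members, Cald1, Tagln2, Lmod1 and Smtn, were called in no comparison, with differences between -0.42 and 0.55. Tagln2 was called at 24 h without controls 5, 6 or 7 (adjusted p = 0.0241, 0.0499 and 0.0379) and at 72 h without control 5 (0.58, adjusted p = 0.0225).

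**Figure D3:**
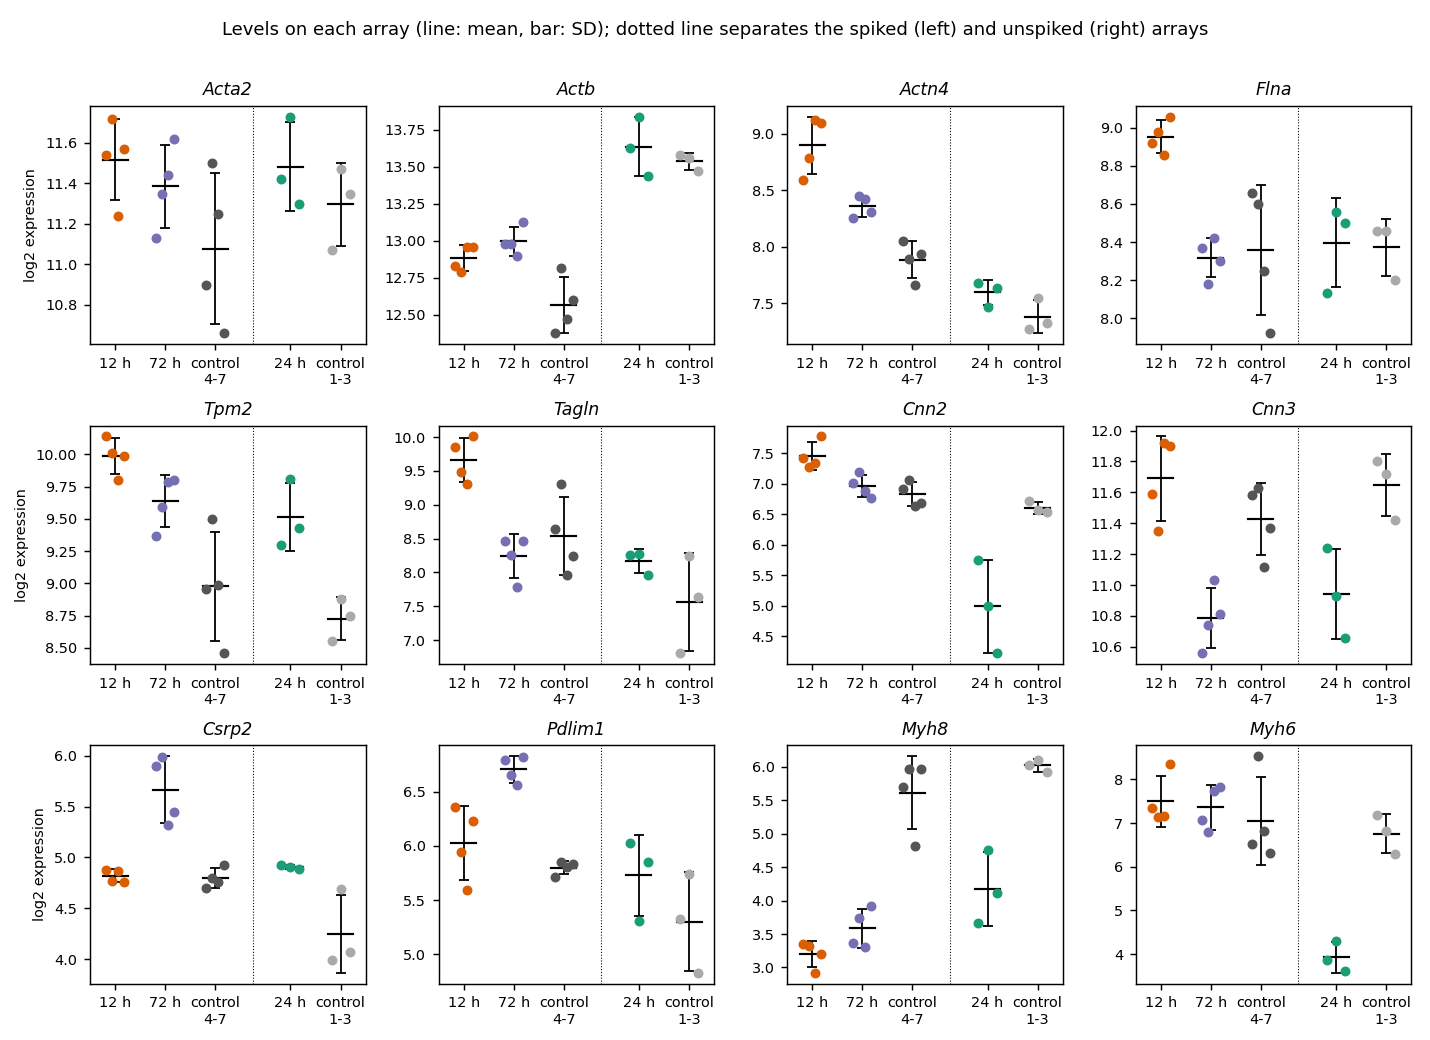
Log2 expression (y axis) of 12 contractile genes on each array (points), with the group mean (line) and SD (bar); groups left of the dotted line are on spiked arrays and those right of it on unspiked ones, so each treated group is read against the controls on its own side. Tagln, Flna and Actn4 are highest at 12 h, Csrp2 and Pdlim1 at 72 h, Cnn2 and Myh6 are lowest at 24 h, and Myh8 is below the controls at each time.

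Among the myosins, the motor proteins, the smooth muscle heavy chain Myh11 read 8.64, 8.86, 8.07 and 8.39 at 12 h and 8.09, 8.39, 8.39 and 8.47 at 72 h, against 8.04, 8.45, 8.06 and 8.11 in controls 4 to 7. At 24 h Myh11 read 8.12, 8.63 and 8.44, against 8.61, 8.54 and 8.41 in controls 1 to 3. Its groups overlapped throughout and its differences of 0.33, -0.12 and 0.17 at 12, 24 and 72 h were not called. The regulatory light chain Myl9 read 11.12, 10.82, 10.88 and 11.30 at 12 h and 10.84, 10.81, 10.86 and 11.07 at 72 h, against 10.53, 10.74, 10.60 and 10.17 in controls 4 to 7. At 24 h Myl9 read 10.48, 10.83 and 10.49, against 10.32, 10.41 and 10.20 in controls 1 to 3. Every treated array of Myl9 was above its controls at each time, and the 12 h difference of 0.52 ± 0.13 was called (adjusted p = 0.0281), while 0.29 ± 0.15 at 24 h and 0.38 ± 0.13 at 72 h were not. The 12 h call was lost without 12 h replicates 1 or 4 or controls 4 or 7 (adjusted p = 0.0589 to 0.0958), and with quantile normalization (0.45, adjusted p = 0.0666).

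Mylk, the kinase that phosphorylates Myl9, had positive differences at 12 h and 72 h on both of its bright probe sets, but only 1 of them was called in the main fit. The brightest gave 0.38 ± 0.12 at 12 h and 0.39 ± 0.12 at 72 h, neither called (adjusted p = 0.0912 and 0.0789), though 72 h was called without 72 h replicate 1 (0.49, adjusted p = 0.0247). The next one gave 0.52 ± 0.12 and 0.68 ± 0.12 (adjusted p = 0.0194 and 0.00321). Myh9, a non-muscle heavy chain, was called in no comparison. The essential light chain Myl6 was read from a dim probe set with a mean of 4.91, which gave -0.21, -0.85 and -0.60 at 12, 24 and 72 h without a call, except at 24 h when 12 h replicate 1 or control 5 was left out (adjusted p = 0.0428 and 0.0418). Its bright probe sets, at 11.38 and 11.94, also match predicted genes and gave 0.40 ± 0.10 and 0.32 ± 0.12 at 12 h, the dimmer of them called at 12 h (adjusted p = 0.0275) and at 24 h (0.49 ± 0.11, adjusted p = 0.0117).

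Of the striated muscle myosins, Myh8 was lower at each time and Myh6 at 24 h. Myh8, the perinatal heavy chain of skeletal muscle, read 3.35, 3.32, 2.92 and 3.20 at 12 h and 3.37, 3.74, 3.31 and 3.92 at 72 h, against 5.70, 5.97, 4.82 and 5.96 in controls 4 to 7. At 24 h Myh8 read 3.66, 4.76 and 4.11, against 6.03, 6.10 and 5.92 in controls 1 to 3. No treated array reached a control of its set. Myh8 fell by 2.42 on the log2 scale at 12 h (SE 0.26, 5.34-fold, adjusted p = 4.65e-05), by 1.84 at 24 h (SE 0.30, adjusted p = 0.00119) and by 2.03 at 72 h (SE 0.26, adjusted p = 0.000247), each call standing without every array in turn; within the unspiked set alone the 24 h value was not called (adjusted p = 0.0586). The treated values are near the bottom of the scale, where a difference may be understated.

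Myh6, the alpha heavy chain of heart muscle, read 7.34, 7.13, 7.17 and 8.36 at 12 h and 7.06, 6.80, 7.74 and 7.83 at 72 h, against 6.51, 8.53, 6.82 and 6.31 in controls 4 to 7. At 24 h Myh6 read 3.86, 4.31 and 3.61, against 7.19, 6.81 and 6.28 in controls 1 to 3. Only the 24 h arrays stood apart, each more than 1 unit below any other array. The 24 h difference was -2.83 ± 0.51 (7.12-fold, adjusted p = 0.00244), while 12 h gave 0.46 ± 0.44 and 72 h gave 0.31 ± 0.44. The 24 h change minus the 12 h change was -3.29 ± 0.67 (adjusted p = 0.0359), and 72 h against 24 h was 3.15 ± 0.67 (adjusted p = 0.0673). The contrast of 24 h with 12 h stood in 9 of 18 fits without 1 array, being lost without 12 h replicates 1, 3 or 4, 24 h replicate 3, or controls 1, 2, 4, 6 or 7. A probe set shared by Myh7 and Myh6 gave -1.74 ± 0.42 at 24 h (adjusted p = 0.0142), and a dim Myh6 probe set at 3.38 gave 0.41 ± 0.14 (adjusted p = 0.0677), in the other direction.

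Markers of striated muscle were looked at beside these myosins. Of all genes 6.28% were called at 12 h and 14.8% at 24 h. Of 20 skeletal muscle genes 19 averaged below the median probe set level, and 0 were called at 12 h by limma (adjusted p below 0.05), where Myh8 fell most. Of 10 cardiac muscle genes 8 averaged below it, and those called lower were Tnni3, a troponin subunit, at 12 h (-1.92 ± 0.17) and at 24 h (-2.26 ± 0.19), where Actc1, a dim cardiac actin, was called higher (0.15 ± 0.05). Tnni3, at a mean of 9.51, was by far the brightest of the list and its only gene called lower at 12 h or 24 h. The list's summed linear level, carried mostly by Tnni3, was 430 to 589 at 12 h and 1060 to 1390 at 72 h, against 1470 to 1730 in controls 4 to 7, and 308 to 414 at 24 h against 1120 to 1440 in controls 1 to 3. The skeletal list summed to 204 to 243 at 12 h and 209 to 246 at 72 h, against 193 to 228 in controls 4 to 7, and to 191 to 223 at 24 h against 199 to 213 in controls 1 to 3. The part of stray muscle tissue in the Myh6 and Myh8 results was not tested.

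The intermediate filaments differed in level. Des, the desmin of muscle, read 2.96, 2.93, 2.92 and 2.89 at 12 h and 2.95, 2.96, 2.94 and 2.93 at 72 h, against 2.94, 2.89, 3.02 and 2.73 in controls 4 to 7. At 24 h Des read 3.00, 2.95 and 3.20, against 2.95, 3.01 and 2.97 in controls 1 to 3, so it sat near the bottom of the scale on every array. Vim, the vimentin of Sertoli and mesenchymal cells, read 11.55, 12.07, 11.88 and 12.10 at 12 h and 11.96, 12.09, 11.72 and 11.68 at 72 h, against 11.52, 11.60, 11.18 and 11.22 in controls 4 to 7. At 24 h Vim read 12.17, 12.40 and 12.07, against 11.88, 11.99 and 11.73 in controls 1 to 3. The 24 h and 72 h arrays of Vim were all above their controls, and at 12 h 1 array, at 11.55, was not. Vim was called at 12 h (0.52 ± 0.14, adjusted p = 0.0431) and just missed at 72 h (0.48 ± 0.14, adjusted p = 0.0554), where it was called without 12 h replicate 1 or control 5 (adjusted p = 0.0284 and 0.0438). The 12 h call stood in 7 of 18 fits without 1 array, being lost without 12 h replicates 2, 3 or 4, 24 h replicate 1, 72 h replicates 1 or 3, or controls 1, 2, 4, 6 or 7 (highest adjusted p = 0.132). It was also lost without the block (adjusted p = 0.324), within the array set alone (0.076), with quantile normalization (0.0835) and for the gene's mean (0.0515).

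The linkers of actin to membrane and adhesion gave 4 of the 9 rises at 12 h. Actn4, an alpha-actinin that crosslinks filaments in non-muscle cells, read 8.59, 8.78, 9.12 and 9.09 at 12 h and 8.25, 8.45, 8.42 and 8.31 at 72 h, against 8.05, 7.89, 7.66 and 7.94 in controls 4 to 7. At 24 h Actn4 read 7.68, 7.47 and 7.64, against 7.27, 7.55 and 7.33 in controls 1 to 3. The 12 h, 72 h and control arrays formed steps with no overlap, with 12 h at the top. Actn4 rose by 1.01 ± 0.12 at 12 h (2.01-fold, adjusted p = 9.19e-05) and 0.47 ± 0.12 at 72 h (adjusted p = 0.0256), and 72 h minus 12 h was -0.54 ± 0.12 (adjusted p = 0.0236). The 12 h call stood without each array. The 72 h call was lost without 72 h replicates 2 or 3 or controls 5 or 6 (adjusted p = 0.0551 to 0.0792), and the 72 h against 12 h call without 12 h replicates 3 or 4 or 72 h replicates 1 or 4 (adjusted p = 0.065 to 0.0863), and within the array set alone (adjusted p = 0.0517).

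Flna, the filamin that joins filaments into networks, read 8.92, 8.98, 8.86 and 9.06 at 12 h and 8.37, 8.18, 8.42 and 8.30 at 72 h, against 8.66, 8.60, 8.25 and 7.92 in controls 4 to 7. At 24 h Flna read 8.13, 8.56 and 8.50, against 8.46, 8.46 and 8.20 in controls 1 to 3. The 12 h arrays were above every other array, and 72 h lay inside the range of its controls. Flna rose by 0.60 ± 0.14 at 12 h (adjusted p = 0.022), was -0.04 ± 0.14 at 72 h, and 72 h minus 12 h was -0.64 ± 0.14 (adjusted p = 0.0278). The 12 h call was lost without 12 h replicates 2 or 4 or control 6 (adjusted p = 0.0529 to 0.0699), and the 72 h against 12 h call without any 1 of the 12 h or 72 h arrays (adjusted p = 0.0507 to 0.0949).

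Talin and vinculin couple integrins to actin. Tln1 read 8.65, 8.70, 8.53 and 8.54 at 12 h and 8.17, 8.15, 7.98 and 8.04 at 72 h, against 7.98, 8.09, 7.53 and 7.89 in controls 4 to 7. At 24 h Tln1 read 8.18, 8.05 and 7.43, against 7.46, 7.86 and 7.56 in controls 1 to 3. All 12 h arrays of Tln1 were higher than any other array, with a rise of 0.73 ± 0.15 (adjusted p = 0.00874) that stood without each array. Without 24 h replicate 3, Tln1 was also called at 24 h (0.49, adjusted p = 0.0421) and for 72 h against 12 h (-0.52, adjusted p = 0.0248). A dimmer Tln1 probe set, at a mean of 5.97, gave -0.30 ± 0.42, and with the mean of both the rise was not called (0.21, adjusted p = 0.711). Vcl read 9.80, 9.76, 9.92 and 9.85 at 12 h and 9.16, 9.56, 9.53 and 9.61 at 72 h, against 9.31, 9.46, 9.05 and 9.22 in controls 4 to 7. At 24 h Vcl read 9.88, 9.95 and 9.55, against 9.70, 9.88 and 9.56 in controls 1 to 3. Vcl rose by 0.58 ± 0.12 at 12 h (adjusted p = 0.00746), again without each array, and its 24 h and 72 h differences of 0.08 and 0.21 were not called.

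Csrp2 and Pdlim1, LIM proteins of the actin cytoskeleton, were high at 72 h. Csrp2, known from smooth muscle, read 4.88, 4.77, 4.87 and 4.76 at 12 h and 5.90, 5.99, 5.32 and 5.45 at 72 h, against 4.70, 4.80, 4.76 and 4.93 in controls 4 to 7. At 24 h Csrp2 read 4.93, 4.91 and 4.89, against 3.99, 4.69 and 4.07 in controls 1 to 3. It was at control level at 12 h (0.03 ± 0.15), higher at 24 h (0.66 ± 0.18, adjusted p = 0.0251) and at 72 h (0.87 ± 0.15, 1.82-fold, adjusted p = 0.0031), and higher at 72 h than at 12 h by 0.84 ± 0.15 (adjusted p = 0.00906). The 24 h call was lost without 24 h replicates 2 or 3 or controls 1 or 3 (adjusted p = 0.05 to 0.116) or without the block (0.35, adjusted p = 0.165), and both 72 h calls stood without each array. Pdlim1, which binds alpha-actinin, read 6.36, 5.94, 5.59 and 6.23 at 12 h and 6.79, 6.65, 6.56 and 6.82 at 72 h, against 5.71, 5.85, 5.81 and 5.83 in controls 4 to 7. At 24 h Pdlim1 read 6.03, 5.31 and 5.85, against 5.33, 5.74 and 4.83 in controls 1 to 3. The 72 h arrays were above all others, and the rise of 0.90 ± 0.20 (1.87-fold, adjusted p = 0.0129) stood without each array, while 72 h against 12 h gave 0.67 ± 0.20 and was not called (adjusted p = 0.11).

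Lpp, a relative of zyxin at focal adhesions, read 7.77, 7.10, 7.69 and 7.78 at 12 h and 7.09, 6.67, 7.16 and 7.21 at 72 h, against 7.63, 7.85, 6.96 and 7.57 in controls 4 to 7. At 24 h Lpp read 7.23, 6.34 and 6.67, against 7.82, 8.07 and 7.42 in controls 1 to 3. Its 24 h arrays were below their controls, by -1.02 ± 0.27 (2.03-fold, adjusted p = 0.0235), and a second probe set gave -0.88 ± 0.26 (adjusted p = 0.0418). The call was lost without 24 h replicates 2 or 3 or controls 1 or 2 (adjusted p = 0.0563 to 0.0959). The remaining linkers, Actn1, Zyx, Tgfb1i1, Pdlim7 and Csrp1, were called in none of the 4 comparisons, with differences from -0.56 to 0.54. Actn1 was called at 12 h without control 5 (0.72, adjusted p = 0.0305), and Zyx at 24 h without control 3 or 6 (adjusted p = 0.0157 and 0.0358). Cfl1 and Pfn1, which sever actin filaments and feed them with monomers, were not called either, at -0.28 to 0.38. Without 12 h replicate 1, Pfn1 was called at 12 h (0.59, adjusted p = 0.00442), 24 h (0.38, adjusted p = 0.0402) and for 72 h against 12 h (-0.58, adjusted p = 0.0113). A second Cfl1 probe set was called at 24 h (0.40 ± 0.12, adjusted p = 0.0458).

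**Figure D4:**
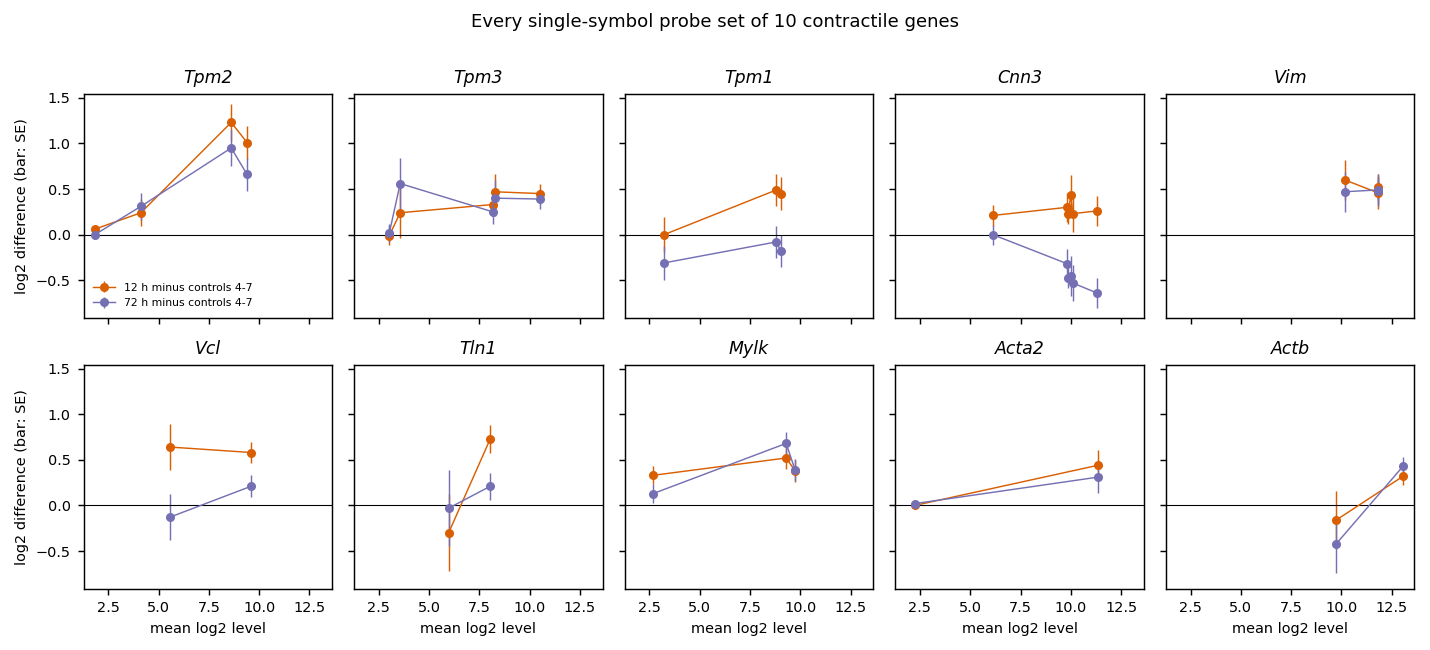
Log2 difference from controls 4 to 7 (y axis, with its SE) at 12 h and 72 h for every single-symbol probe set of 10 contractile genes, placed by its mean log2 level over 18 arrays (x axis). The bright probe sets of Tpm2, Cnn3 and Vim lie on 1 side of 0 at each time, those of Actb do not, the probe sets of Tln1 differ in sign, and the dimmest of Tpm2 and Acta2 lie near 0.

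Of the members, 24 had more than 1 single-symbol probe set, 83 in all for the 40 genes. Srf, the transcription factor that binds CArG boxes, read 7.40, 7.11, 7.09 and 6.93 at 12 h and 7.13, 6.86, 7.22 and 6.95 at 72 h, against 6.83, 6.86, 6.51 and 6.51 in controls 4 to 7. At 24 h Srf read 6.41, 6.26 and 5.84, against 6.48, 6.18 and 6.42 in controls 1 to 3. The 12 h arrays of Srf were all above their controls, yet 0.46 ± 0.14 was not called (adjusted p = 0.0772, and 0.0433 without 24 h replicate 3), and 24 h and 72 h gave -0.19 ± 0.16 and 0.36 ± 0.14.

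Promoters were searched for the CArG box, CC and GG around a run of A and T, in the 250 bases before and 50 after each start in RefSeq's GRCm38.p6 annotation. Of the members, 35 had 40 promoters in the table, and Actb, Actg2, Csrp2, Myh11, Tagln and Tgfb1i1 were not matched. A match was present in 6 of the 40, those of Actg1, Cnn2, Myl6, Myl9, Srf and Vcl, beside 1.63% of all promoters (535 of 32851). The palindrome TGACGTCA, the cAMP response element, was present in 1 of the 40 (2.5%), of Myl6, beside 588 (1.79%). Both motifs read alike on the opposite strand. The first base of the match lay at -82 and -62 from the start in Srf, -161 in Myl9, -227 in Vcl, -90 in Actg1 and -56 in Cnn2. These 5 are shown because they set a gene that encodes the factor beside members that rose at 12 h (Myl9 and Vcl), one that was not called (Actg1) and one that fell at 24 h (Cnn2). Each is the 250 bases before the start, 5′ to 3′ in the direction of the gene, with CArG matches in capitals.
Srf promoter, chr17:46556163-46556412, minus strand: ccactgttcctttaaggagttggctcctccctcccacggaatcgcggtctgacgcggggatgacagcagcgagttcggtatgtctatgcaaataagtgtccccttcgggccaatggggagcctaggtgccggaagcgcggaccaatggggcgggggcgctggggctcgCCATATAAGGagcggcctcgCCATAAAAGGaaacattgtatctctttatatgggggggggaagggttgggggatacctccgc
Myl9 promoter, chr2:156775214-156775463, plus strand: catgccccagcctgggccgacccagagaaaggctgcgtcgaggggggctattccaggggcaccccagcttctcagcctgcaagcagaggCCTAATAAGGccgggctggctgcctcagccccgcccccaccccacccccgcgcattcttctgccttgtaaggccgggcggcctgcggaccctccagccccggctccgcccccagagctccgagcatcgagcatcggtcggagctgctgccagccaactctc
Vcl promoter, chr14:20929148-20929397, plus strand: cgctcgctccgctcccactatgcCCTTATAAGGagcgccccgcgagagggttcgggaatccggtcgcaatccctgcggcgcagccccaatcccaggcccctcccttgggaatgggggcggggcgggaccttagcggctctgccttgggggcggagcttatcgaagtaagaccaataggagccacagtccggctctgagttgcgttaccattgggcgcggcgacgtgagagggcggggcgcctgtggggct
Actg1 promoter, chr11:120348496-120348745, minus strand: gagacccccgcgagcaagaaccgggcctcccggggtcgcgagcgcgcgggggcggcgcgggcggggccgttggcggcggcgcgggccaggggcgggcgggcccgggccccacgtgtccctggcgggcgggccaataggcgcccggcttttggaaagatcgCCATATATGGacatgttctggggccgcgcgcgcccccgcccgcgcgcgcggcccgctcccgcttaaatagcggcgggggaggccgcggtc
Cnn2 promoter, chr10:79988350-79988599, plus strand: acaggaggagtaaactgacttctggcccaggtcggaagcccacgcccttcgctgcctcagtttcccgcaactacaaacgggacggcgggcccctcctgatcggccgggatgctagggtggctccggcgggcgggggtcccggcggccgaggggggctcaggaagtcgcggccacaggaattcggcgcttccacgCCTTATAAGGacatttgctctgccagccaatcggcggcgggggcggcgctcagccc
A match describes the letters and is not a bound site. Tpm2 and Actn4, both called at 12 h, had no match, which says only that these letters are not in the windows searched.

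Other genes of contraction and of the Srf pathway, 19 of them measured, changed in both directions. At 12 h 1 rose and 2 fell, at 24 h 0 rose and 5 fell, and at 72 h 1 rose and 1 fell. Between 72 h and 12 h 1 was higher and 2 lower. The medians were 0.03, 0.02, 0.03 and 0.01. Of all genes 3.52%, 6.38%, 4.23% and 1.76% were called higher in these comparisons, and 2.76%, 8.45%, 3.03% and 1.1% lower. Edn1, the peptide endothelin that makes smooth muscle and myoid cells contract, was lower at all 3 times, with -1.56 ± 0.18 at 12 h, -2.39 ± 0.21 at 24 h (5.22-fold, adjusted p = 1.03e-05) and -1.68 ± 0.18 at 72 h. Fhl1, a LIM protein of muscle, rose by 0.96 ± 0.13 at 12 h and was lower at 72 h than at 12 h (-0.64 ± 0.13). Fhl2, a related LIM protein that binds Srf, was lower at 12 h (-0.65 ± 0.16) and at 24 h (-0.64 ± 0.19). Mrtfa, the actin-sensing cofactor of Srf, and Cacna1c, the L-type calcium channel of muscle, were called lower at 24 h (-1.15 ± 0.32 and -1.17 ± 0.34). Avpr1a, a vasopressin receptor that contracts myoid cells in rat, was dim but rose at 72 h by 1.08 ± 0.17 (adjusted p = 0.0012).

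Genes of actin assembly and adhesion outside the set, 35 measured, had 3 higher and 0 lower at 12 h, 2 and 2 at 24 h, 4 and 0 at 72 h, and 0 called between 72 h and 12 h (5 at an unadjusted p below 0.05). Beside these counts, the share of all genes called was 6.28%, 14.8% and 7.26% against controls after 12, 24 and 72 h. Between 72 h and 12 h it was 2.86%. The genes named next are called ones with the largest differences and do not stand for the list. Cotl1, a protein that binds actin filaments, rose at each time, by 1.68 ± 0.27 (3.19-fold), 1.22 ± 0.31 and 1.49 ± 0.27. Vasp, which elongates filaments, rose by 0.76 ± 0.21 at 12 h and the cortical actin protein Cttn by 0.39 ± 0.09. Arpc4, a subunit of the Arp2/3 complex that branches filaments, rose by 0.70 ± 0.14 at 24 h and 0.51 ± 0.12 at 72 h. Gsn, the filament-severing gelsolin, fell by 1.25 (SE 0.27) at 24 h, as did Parva, a partner of integrin-linked kinase at adhesions, by 0.92 (SE 0.26). Arpc5, of the same complex as Arpc4, rose by 0.45 ± 0.11 at 72 h.

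Markers of other cells that hold contractile genes were set beside these results. Of all genes 3.52%, 6.38% and 4.23% were called higher at 12, 24 and 72 h, and 2.76%, 8.45% and 3.03% lower. For 72 h against 12 h the shares were 1.76% higher and 1.1% lower. Pericyte and vascular wall markers (8 measured, 5 below the median level) had 0 called by limma at 12, 24 and 72 h, with 1, 1 and 2 at an unadjusted p below 0.05, and summed to 858 to 1020 on the linear scale at 12 h and 1020 to 1210 at 72 h, against 758 to 1610 in controls 4 to 7, and to 625 to 1080 at 24 h against 1100 to 1970 in controls 1 to 3. Endothelial markers (9 measured, 6 below it) had 0 called, with 1, 0 and 0 unadjusted, and summed to 207 to 228 at 12 h and 171 to 228 at 72 h, against 178 to 284 in controls 4 to 7, and to 136 to 170 at 24 h against 147 to 191 in controls 1 to 3. Leydig cell markers rose in 4 of 8 genes at 12 h, in 5 at 24 h and in 1 at 72 h, and 3 of the 8 were lower at 72 h than at 12 h. They summed to 6630 to 8970 at 12 h and 4590 to 5380 at 72 h, against 3730 to 7740 in controls 4 to 7, and to 6940 to 10200 at 24 h against 4700 to 5450 in controls 1 to 3. Sertoli cell markers (12) had 2 called higher and 2 lower at 12 h, the same numbers at 24 h, but 3 higher and 1 lower at 72 h. They summed to 28800 to 33000 at 12 h and 35800 to 44100 at 72 h, against 31000 to 41200 in controls 4 to 7, and to 25600 to 29100 at 24 h against 28000 to 30900 in controls 1 to 3. Germ cell markers fell in 2 of 11 genes at 12 h, in 5 at 24 h and in 3 at 72 h. They summed to 6210 to 9470 at 12 h and 7090 to 10000 at 72 h, against 8150 to 10300 in controls 4 to 7, and to 6000 to 8580 at 24 h against 7830 to 9120 in controls 1 to 3. The part of these cells in the members' changes was not tested.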

How the data were processed

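Testis RNA of 18 hpg mice was read on Affymetrix MOE430A arrays. The authors deposited 1 table for 22690 probe sets. RMA and GCRMA stand in the submitters' processing notes; which of them was applied, and in what version, no source used here gives. The deposited table states no scale, and its range, 1.04 to 14.8, was read as log2. The 64 control probe sets were left out and 22626 tested without a filter. Names come from GEO's platform annotation: 20380 probe sets carry 1 symbol, for 12393 genes.

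A linear model per probe set (limma 3.58.1, R 4.3.3) held 4 group means and the array set as a block (13 residual degrees of freedom, two-sided tests), with Benjamini-Hochberg adjustment over all probe sets. The array set was read from the Dap spike-in (log2 above 6). Per gene, the single-symbol probe set with the highest mean was used. Values on every array are given for members called with a difference of at least 0.5 and for 11 set genes. From other lists, called genes with the largest differences are named. The members and all lists were chosen with earlier results of these data known. Same-numbered 24 h and control arrays deviated together (correlations 0.179, 0.343 and 0.406), so a fit that pairs them is given beside the main 24 h count, which comes from the fit without pairing; the 12 h and 72 h arrays did not all do so (0.0133 to 0.13). The fits were tested on simulated data. The alternatives were no block, fits within a set, quantile normalization, a filter on dim probe sets, trend and robust moderation, gene means, replicate blocks and each array left out; the fit pairing the unspiked arrays and the contrasts of 24 h with 12 h and 72 h were chosen after seeing the data. The number of arrays limits the precision.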

Additional observations from a re-analysis of the deposited data

Results flagged for a closer look

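In 7 of 120 groups of 4 arrays, 1 array stood far from the others of its group for a member, where chance gives about 1 in 20. These were Actg2 in control 6 (4.87), Cnn1 in 72 h replicate 4 (5.98), Lmod1, Smtn and Myh6 in 12 h replicate 4 (3.69, 2.92 and 8.36), Myl6 in 12 h replicate 1 (4.48) and Lpp in 12 h replicate 2 (7.10).

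Members whose difference changed between times, by the direct contrast, were Cnn3 (-0.90), Tagln (-1.42), Actn4 (-0.54), Flna (-0.64) and Csrp2 (0.84) for 72 h against 12 h, and Cnn2 (-2.25) and Myh6 (-3.29) for 24 h against 12 h. The 24 h arrays are on the other array set, so the last 2 contrasts set the change on unspiked arrays against the change on spiked ones.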

How the results depend on the processing

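Of 32 calls of a member in a comparison, 0 changed direction under any alternative, 6 were called under every alternative setting, 15 without each array in turn and 4 in all of these. The number of members called at 12 h (10) was 1 with the array set block plus replicate block, which leaves the spiked controls only control 4 to pair by number, and 5 to 13 with 1 array left out. At 24 h (7) it was 12 without a block for the array set, 2 within the array set alone, 10 with the replicate block on the unspiked arrays and 3 to 9 with 1 array left out. At 72 h (8) it was 1 with the array set block plus replicate block and 4 to 9 with 1 array left out. For 72 h against 12 h (5) it was 3 without a block, 2 with the replicate block and 2 to 7 with 1 array left out. Counts over all probe sets moved too: 3023 at 24 h against 8137 without a block, 393 within the set and 4827 with pairing; with the replicate block they were 255 at 12 h (1211 without it), 244 at 72 h (1388) and 324 for 72 h against 12 h (535). With 3 or 4 arrays a group, differences of members near 0.5 sit close to the threshold, and dim members such as Des, Actg2, Lmod1 and Smtn give only bounds.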

Other observations

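A further list drawn up for smooth muscle had 11 measured genes. It holds chaperones and a protein of the Z-disc, and how far its genes mark smooth muscle was not tested. Against controls, 1 gene was called higher and 1 lower after 12 h. The counts were 0 higher and 3 lower after 24 h, then 0 higher and 2 lower after 72 h. Beside these counts, the shares of all genes called higher were 3.52%, 6.38% and 4.23% after 12, 24 and 72 h. The shares called lower were 2.76%, 8.45% and 3.03%. Limma called 0 genes for 72 h against 12 h (5 had an unadjusted p below 0.05), beside 2.86% of all genes. The small heat shock protein Hspb1 was lower at each time, with -1.35 ± 0.17, -1.31 ± 0.20 and -2.0 ± 0.17 (limma adjusted p = 0.000201, 0.000695 and 8.41e-06). A related chaperone, Cryab, was lower at 24 h (-1.95 ± 0.48), and the LIM protein Crip2 at 24 h (-0.96 ± 0.13) and 72 h (-0.66 ± 0.11). Ldb3, a dim protein of the Z-disc, was higher at 12 h (0.59 ± 0.16). The list summed to 1910 to 2210 on the linear scale at 12 h and 1270 to 1700 at 72 h, against 2690 to 3130 in controls 4 to 7. At 24 h it summed to 1600 to 2130, against 2410 to 3220 in controls 1 to 3. Hspb1, at a mean of 9.63, was the brightest gene of the list and weighs most in these sums. The median difference of the list was 0.00 at 12 h, 0.05 at 24 h and 0.00 at 72 h.

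For the lists below, the shares of all genes called were 6.28% at 12 h, 14.8% at 24 h and 7.26% at 72 h. For 72 h against 12 h the share was 2.86%. In the skeletal muscle list, 1 gene was higher at 24 h, Tnni2 (0.35 ± 0.10). At 72 h Myh1, a fast heavy chain, was higher (2.13 ± 0.16, limma adjusted p = 2.95e-06) and Tnnt1 lower (-0.61 ± 0.15). Myh1 was also higher at 72 h than at 12 h (1.88 ± 0.16) and Tnnt1 lower (-0.80 ± 0.15). In the cardiac list Tnni3 was higher at 72 h than at 12 h (1.40 ± 0.17). Macrophage markers (7) had 1 lower at 12 h and at 24 h, Csf1r (-0.85 ± 0.17 and -0.73 ± 0.20), and 2 higher at 72 h, Cd68 (1.34 ± 0.19) and Mrc1 (0.79 ± 0.16). Red blood cell genes (3, all below the median level) had 0 called, also at an unadjusted p below 0.05, and fat cell genes (4) had 1 higher at 24 h, the dim Cidec (0.49 ± 0.12). The fat cell list summed to 39.3 to 81.9 on the linear scale at 24 h, against 32.3 to 233 in controls 1 to 3, the widest range of any group. It summed to 38.9 to 59.4 at 12 h and 45.5 to 82.6 at 72 h, against 23.2 to 35.3 in controls 4 to 7. The part of stray fat tissue in the 24 h differences was not tested.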
